A study of Ovis aries with 3 samples.

Results

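The miRNAs miR-99a and miR-125b were examined along the sheep intestine. They are 2 of the 822 entries counted in the libraries, taken by name as oar-miR-99a and oar-miR-125b because they belong to the miR-99/let-7/miR-125 clusters. Small RNA was sequenced from the intestinal mucosal epithelial tissue of 3 segments, duodenum (DU), cecum (CE), and proximal colon (CO), of Small tailed Han sheep. The RNA of the same 3 ewes aged 11 months was pooled for each segment, which left a single library for each and nothing to replicate it. The total of all counts was 14462675 for DU, 15072945 for CE, and 13769740 for CO. Levels are given as normalized reads, that is, reads per 1000000 genome-mapped clean reads. Every interval below covers counting error only, as does every test except those of edgeR, for which a further variation was assumed. The spread between animals cannot be seen.

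A miRNA guides the silencing complex to messenger RNAs that pair with its seed, the bases near its 5' end. In mammals, miR-99, let-7, and miR-125 genes lie together in several related clusters, in which miRNAs can be cut from a common transcript: miR-99a with let-7c and a copy of miR-125b, miR-100 with let-7a and another copy of miR-125b, and miR-99b with let-7e and miR-125a. The miR-99 family is known to repress MTOR and the insulin-like growth factor receptor IGF1R, and miR-125 is the vertebrate counterpart of the worm miRNA lin-4, a timer of development. Mature miR-125b is the same molecule whichever copy it comes from, so its reads cannot be assigned to 1 cluster. In the RefSeq annotation of the sheep assembly ARS-UI_Ramb_v3.0, which is not the build of the files, MIR99A and MIRLET7C are each other's nearest miRNA genes and both lie within the protein-coding gene LOC121816219. MIR125B lies within the lncRNA gene LOC105602212, with no other miRNA gene listed on its chromosome. The MIRLET7A gene looked up there lies within the protein-coding gene ZNF169, with MIRLET7D as its nearest miRNA gene. It is therefore not a listed neighbour of MIR125B.

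The mature sequences of the pair and of their cluster partners show which entries share a seed. They are written 5' to 3' as the files give them, with T for U and with the seed (bases 2 to 8) in capitals.
oar-miR-99a: aACCCGTAgatccgatcttg
miR-100 (entry novel_mir_211): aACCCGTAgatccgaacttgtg
miR-99b (entry novel_mir_193): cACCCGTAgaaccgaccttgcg
oar-miR-125b: tCCCTGAGaccctaacttgtg
miR-125a (entry novel_mir_195): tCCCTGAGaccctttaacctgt
oar-let-7c: tGAGGTAGtaggttgtatggtt
oar-let-7a: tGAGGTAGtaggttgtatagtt
let-7e (entry novel_mir_194): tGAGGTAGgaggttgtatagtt

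The miR-99a seed was found in 3 of the 822 entries and the miR-125b seed in 2. The predicted entries were given these miRNA names by comparing their sequences with the mature sequences in the supplementary material of the study, and let-7e and miR-125a were matched to entries that differ from those sequences in length at an end. Positions being counted from 1 at the 5' end, miR-100 differed from miR-99a by 1 substitution, T16A, over the 20 bases of miR-99a, and miR-99b differed by A1C, T11A, and T16C. From miR-125b, miR-125a differed by A14T, A15T, C16A, T17A, T18C, and G19C over 21 positions, all outside the seed. Sequences were laid side by side from the 5' end without gaps, so bases shifted by an insertion count here as substitutions. How a read that could belong to more than 1 of these close relatives was counted is not given in the sources used here.

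In the DU library miR-99a was highest and miR-125b was lowest. The reads of miR-99a numbered 125805 in DU, 102341 in CE, and 91659 in CO, which gave normalized values of 7518, 6018, and 5532. Its share of all counted reads was 0.870% in DU (Wilson 95% interval 0.865 to 0.875), 0.679% in CE (0.675 to 0.683), and 0.666% in CO (0.661 to 0.670). The order was therefore DU, CE, CO, and miR-99a ranked 17th, 18th, and 20th among all entries. The reads of miR-125b numbered 31003, 48502, and 40746 in the same order of libraries, or 1853, 2852, and 2459 normalized reads. Its share was 0.214% in DU (0.212 to 0.217), 0.322% in CE (0.319 to 0.325), and 0.296% in CO (0.293 to 0.299). The order of miR-125b was CE, CO, DU, and it ranked 41st in DU, 28th in CE, and 32nd in CO. Without replicates, it cannot be said which neighbours in either order differ beyond the spread between samples. The intervals exclude equal levels for every pair of libraries, as far as counting error goes.

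**Figure D1:**
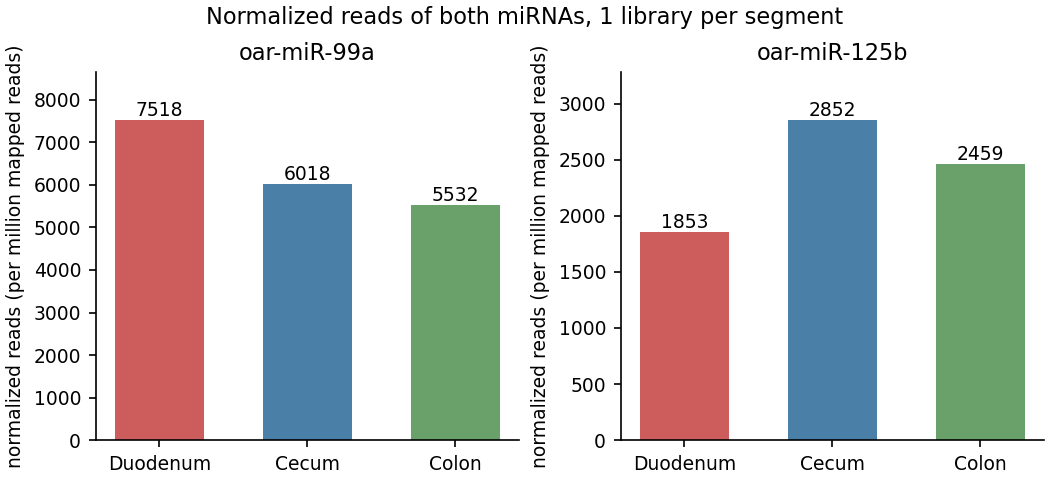
Normalized reads of oar-miR-99a (left) and oar-miR-125b (right) in the duodenum, cecum, and colon libraries, 1 bar per library and no error bar because there was 1 library per segment. The bars of miR-99a step down from 7518 to 5532, and those of miR-125b stand at 1853, 2852, and 2459.

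Between the CE and DU libraries, miR-99a and miR-125b differed in opposite directions. The log2 ratio of CE over DU was -0.32 for miR-99a (exact 95% interval -0.33 to -0.31), a level 1.25-fold lower in CE. It was 0.62 for miR-125b (0.60 to 0.64), a level 1.54-fold higher in CE. Neither passed a fold change of 2, so 0 of 2 did, against 41.7% of the 348 entries tested (at least 1 normalized read in either library) and 12.9% of the known sheep miRNAs among them. Among the 93 known sheep miRNAs tested, whose median log2 ratio was 0.27, 21 lay below miR-99a and 65 lay below miR-125b. The corrected p-values of both in the exact Audic-Claverie test, which compares 2 counts, were smaller than the software can write.

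The CO and DU libraries gave the same signs. The log2 ratio of CO over DU was -0.44 for miR-99a (-0.45 to -0.43), or 1.36-fold lower in CO. For miR-125b it was 0.41 (0.39 to 0.43), or 1.33-fold higher in CO, with a Bonferroni-corrected p of 1.71e-309 in the exact Audic-Claverie test. Again 0 of 2 passed a fold change of 2, against 39.9% of the 363 entries tested and 9.57% of the known ones. Of 94 known miRNAs, with a median of 0.22, 19 lay below miR-99a and 59 below miR-125b. Both comparisons use the DU library, so they are not independent.

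The CE and CO libraries were closer to each other. Both miRNAs were slightly higher in CE, by a log2 ratio of 0.12 for miR-99a (0.11 to 0.13, corrected p = 5.65e-74 in the exact Audic-Claverie test) and 0.21 for miR-125b (0.19 to 0.23, corrected p = 1.64e-105 in the same exact test). These are fold changes of 1.09 and 1.16. None of the 2 passed a fold change of 2, against 28.5% of the 326 entries tested but 2.13% of the known ones, so that few known miRNAs did. In the 94 known miRNAs, with a median of 0.08, 51 lay below miR-99a and 62 below miR-125b. A biological coefficient of variation of 0.2 between the pooled libraries, not between single animals, was also assumed. In the exact test of edgeR, the unadjusted p-values of miR-99a were then 0.434 (CE over DU), 0.282 (CO over DU), and 0.767 (CE over CO). Those of miR-125b in the same edgeR test were 0.131, 0.320, and 0.603, with every corrected p at 1. The test does not use that the segments came from the same ewes.

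**Figure D2:**
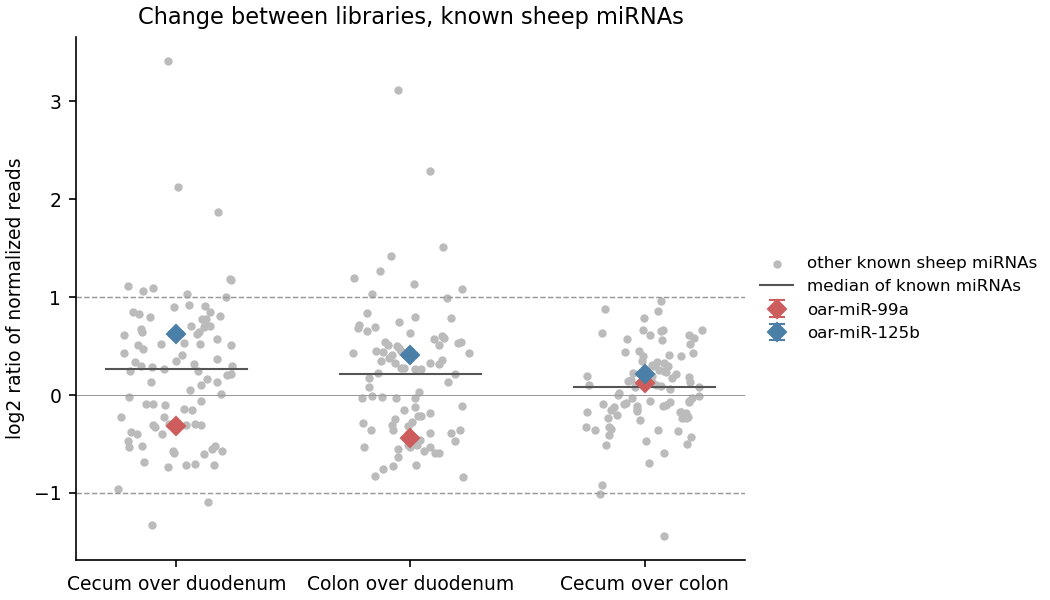
Log2 ratios of normalized reads in the 3 comparisons for the known sheep miRNAs tested (grey points), with miR-99a and miR-125b as diamonds whose 95% counting intervals are narrower than the symbols. The horizontal bars are medians of the known miRNAs and the dashed lines a fold change of 2. Against DU the diamonds lie on opposite sides of 0, at -0.32 and 0.62 for CE and at -0.44 and 0.41 for CO.

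The ratio of miR-99a to miR-125b, which does not depend on library size, set the DU library apart. There were 4.06 miR-99a reads for each miR-125b read in DU (exact 95% interval 4.01 to 4.11), 2.11 in CE (2.09 to 2.13), and 2.25 in CO (2.22 to 2.28). The ratio was 1.92-fold lower in CE than in DU (log2 change -0.94, conditional exact 95% interval -0.97 to -0.92). In CO it was 1.80-fold lower than in DU (-0.85, -0.88 to -0.83). Between CE and CO it differed by 1.07-fold (-0.09, -0.12 to -0.07). Libraries capture miRNAs of different sequence with unequal efficiency, so a ratio within 1 library is not a ratio of molecules, whereas its change between libraries made with the same kit compares the same sequences.

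Against DU, the partner of miR-99a in its cluster, let-7c, kept closer to it than miR-125b did. The normalized reads of let-7c were 3558 in DU, 2434 in CE, and 2454 in CO, with log2 ratios of -0.55 in CE over DU and -0.54 in CO over DU. Like miR-99a, let-7c was thus highest in DU, and so was let-7a, whose listed sequence is nearly the same as that of let-7c. The ratio of miR-99a to let-7c was 2.11 in DU, 2.47 in CE, and 2.25 in CO. Its log2 changes were 0.23 in CE over DU (0.20 to 0.25), 0.09 in CO over DU (0.07 to 0.12), and 0.13 in CE over CO (0.11 to 0.16). The changes against DU were small beside those of the ratio of miR-99a to miR-125b, whereas between CE and CO the latter changed less (-0.09). The difference of let-7c between CE and CO was not detectable at this depth (log2 ratio -0.01, 95% interval -0.03 to 0.01).

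In the cluster of miR-100 and let-7a, the entry of miR-100 had 3362 normalized reads in DU, 5648 in CE, and 3386 in CO, so it was high in CE alone. Its log2 ratio was 0.75 in CE over DU and 0.01 in CO over DU (95% interval -0.01 to 0.03). The miRNA let-7a, which represses the growth regulators of the LIN28 and RAS families, had 36712, 26426, and 30967 normalized reads, so it was lowest where miR-100 was highest. Several genes can give let-7a, and its reads are not those of this cluster alone. The ratio of miR-100 to miR-125b was 1.81 in DU, 1.98 in CE, and 1.38 in CO. From DU to CE this ratio changed by 0.13 on the log2 scale (0.10 to 0.15), but from DU to CO it fell by 0.40 (-0.43 to -0.37).

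In the cluster of miR-99b, let-7e, and miR-125a, the miR-125 member differed most from DU. The miR-125a entry had 1903 normalized reads in DU, 3345 in CE, and 4553 in CO, a log2 ratio of 0.81 in CE over DU and 1.26 in CO over DU. The miR-99b entry had 1446, 2158, and 2179, and its level hardly differed between CE and CO (log2 ratio -0.01). The let-7e entry had 794, 675, and 892. The ratio of miR-99b to miR-125a was 0.760 in DU, 0.645 in CE, and 0.479 in CO. As for the pair of miR-99a and miR-125b, the ratio of the miR-99 member to the miR-125 member was therefore highest in DU, although CE and CO stood in the other order. The ratio of miR-100 to miR-125b was instead highest in CE.

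Of the 6 guide-arm partners in the 3 clusters, 3 were higher and 3 lower in CE than in DU, and 0 passed a fold change of 2. Their median log2 ratio was 0.17, against -0.31 over all entries tested and 0.27 over the known sheep miRNAs tested. In CO over DU, 4 were higher and 2 lower by sign, and 1 passed, miR-125a at 2.39-fold. However, the interval of miR-100 included 0, and miR-100 and let-7e turned lower when the sum of known miRNAs was the library size. In CE over CO, 0 passed. There miR-100 was higher, let-7a, let-7e, and miR-125a were lower, and the intervals of let-7c and miR-99b included 0. The shares of all entries past that fold are the ones given above for the pair, 41.7%, 39.9%, and 28.5%. Among the known sheep miRNAs they were 12.9%, 9.57%, and 2.13%. None of the 9 opposite-arm sequences searched (such as miR-99a-3p and miR-125b-3p) matched an entry, so the balance of the arms was not analysed here.

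**Figure D3:**
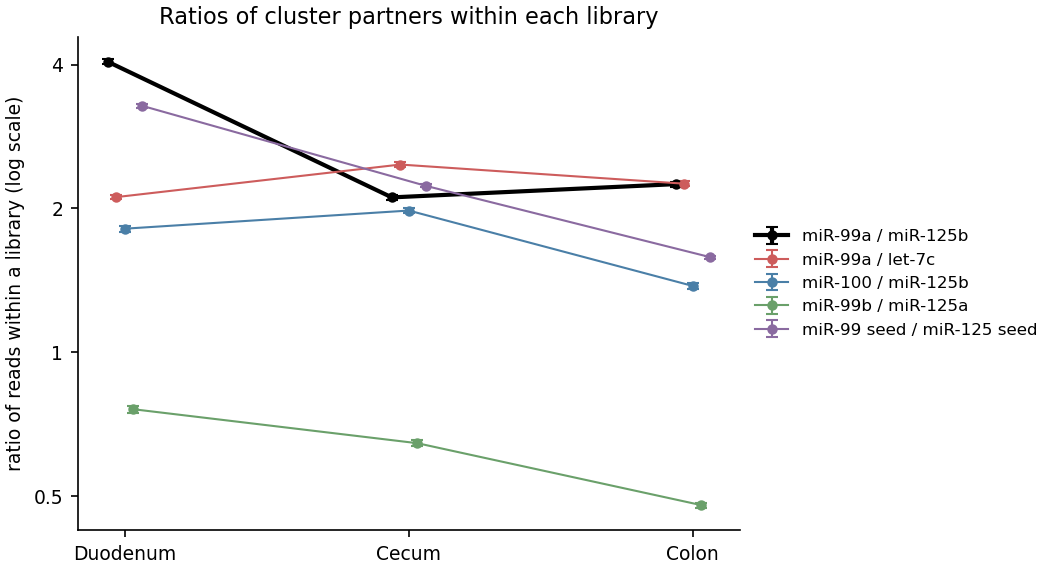
Ratios of reads between cluster partners within each library, on a log scale, with exact 95% counting intervals. The ratio of miR-99a to miR-125b (thick line) stands at 4.06 in the duodenum, 2.11 in the cecum, and 2.25 in the colon, while that of miR-99a to let-7c stays between 2.11 and 2.47.

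Entries with a common seed can pair with the same target sites, so the make-up of both seed groups was also compared. The group with the miR-99 seed summed to 12326 normalized reads in DU, 13824 in CE, and 11097 in CO. Its main member was miR-99a in DU, with 61.0% of the reads (Wilson 95% interval 60.8 to 61.2), but its share was 43.5% in CE (43.3 to 43.7) and 49.9% in CO (49.6 to 50.1). In CE, miR-100 held 40.9% and so came close to miR-99a, against 27.3% in DU and 30.5% in CO. The share of miR-99b was 11.7% in DU, 15.6% in CE, and 19.6% in CO. The sum differed from that of DU by a log2 ratio of 0.17 in CE and -0.15 in CO, and these signs depended on the library size. With the sum of known miRNAs the first was -0.09, and with TMM the second was 0.0055. The shares do not depend on it.

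The group with the miR-125 seed summed to 3755 normalized reads in DU, 6197 in CE, and 7013 in CO. Within it, miR-125b held 49.3% in DU (48.9 to 49.7), 46.0% in CE (45.7 to 46.3), and 35.1% in CO (34.8 to 35.3), and miR-125a held the rest. The share of miR-125b was thus near that of miR-125a in DU and well below it in CO. The ratio of the miR-99 seed group to the miR-125 seed group was 3.28 in DU, 2.23 in CE, and 1.58 in CO. For the seed groups, unlike for the pair itself, CO and not CE stood farthest from DU.

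**Figure D4:**
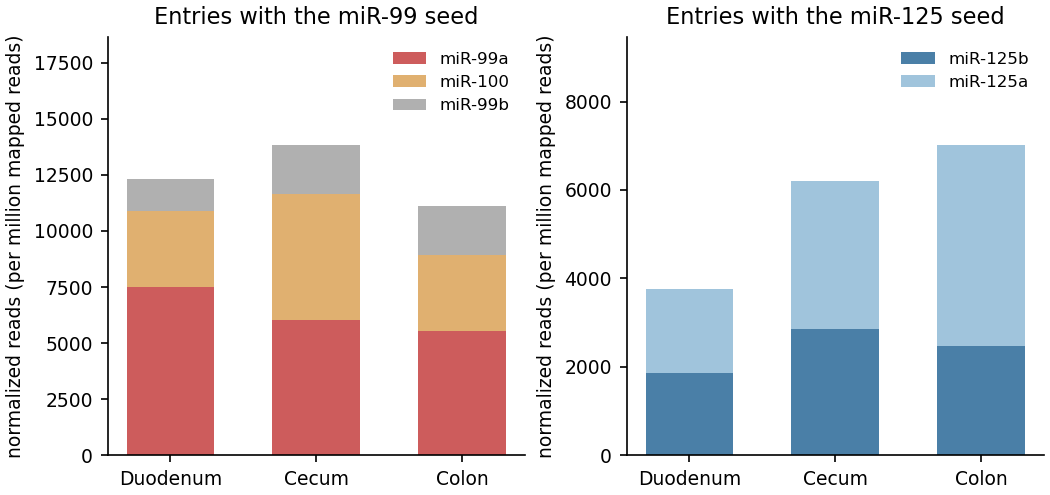
Summed normalized reads of the entries with the miR-99 seed (left) and the miR-125 seed (right), stacked by entry, for 1 library per segment. The miR-99 seed group stays between 11097 and 13824 while miR-99a makes up 61.0% of it in the duodenum and 43.5% in the cecum, and the miR-125 seed group is 3755 in the duodenum and 7013 in the colon, where miR-125a holds 64.9%.

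The entries whose profiles over the 3 libraries were most like each of the pair were sought among the 99 entries with at least 1000 reads in every library, by the distance between log2 levels centred over the libraries. With 3 libraries, many entries resemble one another, and the distances are a description. For miR-99a the nearest were miR-19b (distance 0.0403), the unnamed entry novel_mir_256 (0.0494), miR-181a (0.0592), let-7g (0.0680), and miR-103 (0.0692). As an example, let-7g had 17468, 14188, and 12239 normalized reads in DU, CE, and CO, the same order as miR-99a. Its cluster partner let-7c came 18th and let-7a came 25th, while miR-125b came 73rd.

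For miR-125b the nearest were miR-411a-5p (0.0156), miR-127 (0.0535), miR-143 (0.0977), an entry with the sequence of miR-27b (0.0996), and miR-3958-3p (0.139). The levels of miR-411a-5p were 300.1, 460, and 403 normalized reads in DU, CE, and CO, and those of miR-127 were 454, 737, and 622. Both belong to the imprinted DLK1-DIO3 region. The most abundant of the 5, miR-143, is known from smooth muscle and mesenchyme and had 275281, 429102, and 399239 normalized reads. Among the cluster partners, miR-100 came 20th and miR-99a 52nd.

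Markers of the cell types that the tissue can hold also differed between the libraries. The epithelial list had an entry for 7 of 7 markers, summing to 141811 normalized reads in DU, 49760 in CE, and 38406 in CO. This sum rests on predicted entries for miR-192, which is listed at 0 in CO, and miR-215, whereas the 4 known sheep miRNAs of the list summed to 28477, 20415, and 33447. These 4 did not share an order. The level of miR-194 was highest in DU (9162, 4306, and 6071), whereas miR-200a, miR-200b (4450, 4395, and 8835), and miR-200c were highest in CO. The smooth muscle and mesenchyme list, with an entry for 4 of 6 markers (none for miR-145 and miR-1), summed to 279467, 433256, and 401884, nearly all of it miR-143. Of its other entries, miR-133 had the same order, with 236, 534, and 294 normalized reads, but miR-199a-3p had 3299, 2819, and 1842 and miR-152 had 651, 801, and 510. The list of lymphoid and blood markers, with 3 of 4 entries (miR-451 at 0 in every library), summed to 2175, 735, and 679. The part of cell make-up in the levels of miR-99a and miR-125b was not tested, and in pooled tissue RNA fewer cells of a type and less RNA per cell cannot be told apart.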

How the data were processed

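The RNA was pooled by segment, and libraries were made with the Illumina TruSeq small RNA kit. The authors removed adapters and reads shorter than 18 nt, used SOAP v2.21 and the Oar_v4.0 assembly for mapping (the submitters' processing notes name Bowtie), and found known miRNAs with BLAST in miRBase 21.0 and further ones by miReap prediction. Each deposited file lists raw read counts per mature sequence, which the authors did not normalize, with 146 known and 676 predicted entries in all.

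Counts were divided by the mapped reads of each library given in the study. Libraries were compared with the exact Audic-Claverie test, whose formula the study gives. Here the totals were genome-mapped reads, where its normalization names clean reads, and p was 2 times the smaller tail with Bonferroni correction. The implementation was tested on simulated data. A value of 0 was replaced by 0.01 in fold changes. With 3 reads taken as visible, the floor was 0.179 normalized reads in DU, 0.176 in CE, and 0.181 in CO. Intervals were computed with scipy 1.17.1 and R 4.3.3, and alternatives with edgeR 4.0.16 and DESeq2 1.42.0. The edgeR quasi-likelihood test needs replicates and could not be run. Named were the pair, their cluster partners, every entry with their seed, the miR-10 family, and the 5 entries most like each. The pair and all lists were chosen with earlier results of these data known. The reads came without molecular identifiers, so the intervals treat reads, not molecules, as the units counted. With 1 library per segment, they cover counting error only.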

Additional observations from a re-analysis of the deposited data

How the results depend on the processing

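With 7 other settings (library size as clean reads, sum of counts, TMM, DESeq2 size factors, or sum of known miRNAs, nested entries added, 1 read added), the log2 ratios of miR-99a stayed between -0.57 and -0.20 (CE over DU), -0.64 and -0.29 (CO over DU), and 0.029 and 0.17 (CE over CO), and those of miR-125b between 0.37 and 0.75, 0.21 and 0.57, and 0.12 and 0.27, all with their sign. Neither sequence had a nested entry, and 1 read is negligible beside these counts. Those settings therefore could not move the values, and only the library sizes put the signs to a test. Of the values of the 6 partners, for which only the library size was varied, 86 kept their sign and 4 reversed. With DESeq2 factors the log2 ratio of CE over CO was 0.04001 for let-7c and 0.03788 for miR-99b, and with the sum of known miRNAs that of CO over DU was -0.1849 for miR-100 and -0.028 for let-7e. For the summed miR-99 seed group, a check chosen after seeing the data, the log2 ratio of CE over DU was -0.08779 with the sum of known miRNAs and that of CO over DU was 0.005498 with TMM. TMM shifted every log2 ratio by 0.12 (CE over DU) and 0.16 (CO over DU), and the sum of known miRNAs by -0.25 and -0.20. The counts of entries past a fold change of 2 (145, 145, and 93) were 340, 339, and 258 without a filter and 59, 49, and 26 where both libraries had to have 10 reads or more. With that stricter filter the shares were 21.5% of 274 entries, 17.7% of 277, and 9.35% of 278. The main filter gave 41.7%, 39.9%, and 28.5%. The corrected p-values of both miRNAs were 1 in every comparison when the biological coefficient of variation was assumed to be 0.2 or 0.4. No paired analysis was possible because there was 1 library per segment, and no library could be left out.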

Other observations

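The miR-10 family, which is encoded in the Hox gene clusters, resembles miR-99a and miR-100 in sequence, but bases 2 to 8 differ (in capitals). The miR-10b entry starts 1 base later than the miR-10a entry, so its capitals are shifted by 1 base.
oar-miR-10a: tACCCTGTagatccgaatttg
oar-miR-10b: aCCCTGTAgaaccgaatttgtg
The entries had 6130 (miR-10a) and 2448 (miR-10b) normalized reads in DU, 26739 and 26129 in CE, and 17517 and 21198 in CO. Both were thus lowest in DU, where miR-99a was highest, and both passed a fold change of 2 in CE over DU (as did 41.7% of all entries tested and 12.9% of the known ones) and in CO over DU (39.9% and 9.57%). In CE over CO, 0 of 2 passed, with log2 ratios of 0.61 and 0.30.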
